A study of Mus musculus with 37 samples.

Results

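Mouse bone marrow neutrophils stimulated with LPS, with or without a preceding exposure to IL-10, were compared to find which genes IL-10 held down and which it raised further during endotoxin stimulation. The comparison used the columns of 2 groups (4 of the 37 samples of the series): neutrophils given IL-10 and then LPS, and neutrophils given LPS alone. Transcripts were summed per gene name, a gene was kept if its mean in either group reached 10, and 5879 of the 6509 genes in the table were kept. The study also examined eosinophils, mast cells, peritoneal macrophages and dendritic cells of the spleen (sDCs) by RNA-seq, and 18 groups of 5 cell types have a column in the table.

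All neutrophils came from the marrow of C57Bl6cJ mice, pooled from several animals per experiment and separated on a Percoll gradient. Every neutrophil group, controls included, was cultured overnight with the growth factor GM-CSF before treatment, so each value describes GM-CSF-matured cells. There were 4 neutrophil groups: untreated, IL-10 (100 ng/ml, 4 h), LPS (100 ng/ml, 4 h), and IL-10 with LPS added after the first 4 h for another 4 h. Each group had 2 replicates from independent mice, but the table has a single value per group, the authors' mean of both. No spread between replicates can therefore be given, and no difference was tested. A gene is said below to have fallen or risen where its mean differed by at least 2-fold. Changes with LPS against untreated cells use the same LPS mean as the main comparison and are not independent of it.

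IL-10 is a cytokine that limits inflammation. It binds a receptor made of IL-10Rα and IL-10Rβ, which works through the kinases JAK1 and TYK2 and the transcription factor STAT3. LPS, a component of the outer membrane of Gram-negative bacteria, is sensed by TLR4, whose adaptors lead to NF-κB and MAP kinases on the one hand and to IRF3 and type I interferon on the other. Neutrophils are short-lived phagocytes that reach sites of infection through chemokine receptors such as CXCR2, kill microbes with granule proteins and oxidants, and on stimulation release cytokines and chemokines themselves.

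With IL-10 and LPS against LPS alone, 218 genes fell (3.71% of those kept) and 174 rose (2.96%), while 5487 (93.3%) differed by less than 2-fold. Fold changes are on the log2(mean + 1) scale, which understates the change of low genes. The median log2 fold change of all kept genes was 0.00, and their median absolute value was 0.171. Because the columns were normalized to a common scale, this median cannot show whether IL-10 had a global effect. Of the genes that fell, 50 did so by at least 4-fold, as did 47 of those that rose. Low values contributed much to both numbers, since 139 of the genes that fell and 126 of those that rose had a mean of at least 50 in either group. The plot of fold change by level shows Il12b far below every other gene, and several genes near 0 with LPS that appeared with IL-10 and LPS.

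**Figure D1:**
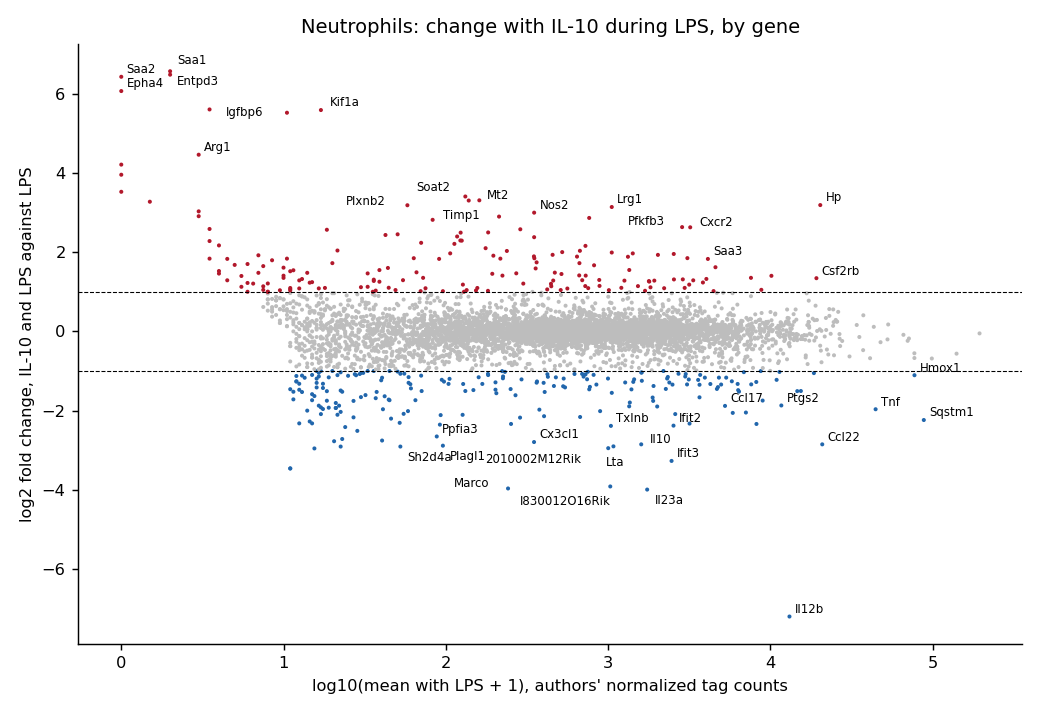
Each point is 1 of 5879 genes, with the log10 of the authors' mean with LPS plus 1 on the x axis and the log2 fold change (mean + 1), IL-10 and LPS against LPS, on the y axis. Dashed lines mark 2-fold, and genes past them are blue (218 lower) or red (174 higher). Il12b lies lowest at -7.20, and genes at the upper left had means near 0 with LPS.

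The neutrophil label was checked against marker genes. Of 19 neutrophil markers listed, 10 were held in the table and all 10 were kept, among them the granule proteases Mmp8, Mmp9 and Elane, myeloperoxidase (Mpo) and the chemokine receptor Cxcr2. Their summed value was 309770 untreated, 329156 with IL-10, 70052.5 with LPS and 109901 with both agents. Ly6g, the surface antigen that defines mouse neutrophils, had a mean of 161.5 untreated, 145.5 with IL-10, 158.5 with LPS and 70.5 with both (log2 fold change -1.16), so the cells with both agents had the lowest value of the 4 groups. Of 19 macrophage or monocyte markers, 11 were held and 7 were kept. Of these 7, 2 fell (28.6%) and 3 rose (42.9%), against 3.71% and 2.96% of all kept genes. The list summed to 33440.5, 33503, 59843.5 and 37150.5 in the same order of groups. Cd163, Timd4, Gata6 and Vsig4, which mark tissue macrophages, were below 10 in both groups with LPS. Of 14 dendritic cell markers 3 were kept, and all 3 had changes below 0 (median -0.78). The 1 that fell (33.3%, against 3.71% of all kept genes) was Xcr1, from 60 to 21.5 (-1.44). Xcr1 is a chemokine receptor of cross-presenting dendritic cells. No kept marker of B lymphocytes (6 genes), T or NK lymphocytes (2), mast cells (1), eosinophils (2) or erythroid cells and megakaryocytes (10) reached 2-fold. Since 93.3% of all kept genes did not either, this is near the background. Some of these markers had sizeable means. Eosinophil markers summed to 20099.5 untreated, 19768 with IL-10, 19648 with LPS and 23628 with both agents, mostly through eosinophil peroxidase (Epx, 18734 with LPS). In the same order, erythroid or megakaryocyte markers summed to 12358, 11880, 9010 and 8877.5, and B lymphocyte markers to 7340.5, 7439, 5544.5 and 4669. The mast cell marker kept, Kit, had 3906.5, 3699.5, 1882 and 2701.5. In bulk RNA, fewer cells of a type and less RNA per cell cannot be told apart, and the part of other cells in the results below was not tested.

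Genes that type I and type II interferons induce fell as a group with IL-10. These encode proteins that sense viral RNA, block translation or attack vacuoles holding pathogens. All 32 members held of a list of 50 were kept, of which 23 (71.9%) fell and 0 rose, against 3.71% and 2.96% of all kept genes. The log2 fold change was below 0 for 32 of 32 members, with a median of -1.28. Their summed mean was 42591.5 untreated, 53955 with IL-10, 146200 with LPS and 64561 with both agents. LPS means were above untreated means in 31 of the 32, and with both agents the mean was below the untreated mean in 2.

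The interferon-stimulated response element (ISRE), a site that interferon regulatory factors bind, was common in the promoters of these genes. Promoters were taken as 250 bases before to 50 bases after the start of each gene's most abundant transcript. The motif GAAANNGAAA, searched on both strands, so that a match on the other strand reads TTTCNNTTTC, was present in 23 of 32 promoters of the list (71.9%) and in 245 of 5874 promoters of kept genes (4.17%). It was present in 42 of the 217 promoters of genes that fell (19.4%), in 5 of the 174 promoters of genes that rose (2.87%) and in 198 of the 5483 others (3.61%). Outside the list, 24 of 194 promoters of genes that fell (12.4%) held it. These genes are not free of relatives of the list. They include immunity-related GTPases, described below, that are not on it. They also include I830012O16Rik, next to the Ifit genes, whose promoter holds 2 matches. The promoters of 3 interferon-induced genes, those with the lowest log2 fold changes among list members that hold the motif, are shown 5′ to 3′ on the gene's strand with the matches in capitals.
Ifit3, chr19:34657771-34658070, + strand, NCBIM37 (mm9): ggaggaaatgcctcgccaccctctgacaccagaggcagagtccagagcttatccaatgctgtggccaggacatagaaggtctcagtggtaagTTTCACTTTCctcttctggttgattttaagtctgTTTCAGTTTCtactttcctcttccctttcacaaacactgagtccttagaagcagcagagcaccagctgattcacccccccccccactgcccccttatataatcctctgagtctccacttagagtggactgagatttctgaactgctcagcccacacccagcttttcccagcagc
Ifit1, chr19:34715111-34715410, + strand, NCBIM37: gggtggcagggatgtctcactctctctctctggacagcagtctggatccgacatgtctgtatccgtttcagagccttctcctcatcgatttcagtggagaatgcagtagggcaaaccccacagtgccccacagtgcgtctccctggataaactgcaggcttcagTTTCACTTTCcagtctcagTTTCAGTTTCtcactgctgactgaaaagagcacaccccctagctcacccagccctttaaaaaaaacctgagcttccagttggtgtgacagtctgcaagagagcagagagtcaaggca
Gbp2, chr3:142283316-142283615, + strand, NCBIM37: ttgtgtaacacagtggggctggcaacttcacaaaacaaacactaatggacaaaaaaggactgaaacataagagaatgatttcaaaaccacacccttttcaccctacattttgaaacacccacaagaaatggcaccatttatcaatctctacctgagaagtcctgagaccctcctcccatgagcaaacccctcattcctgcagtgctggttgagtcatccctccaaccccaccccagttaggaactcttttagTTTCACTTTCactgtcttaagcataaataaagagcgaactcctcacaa

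Ifit3 and Ifit1 each hold the same pair of decamers upstream of the start, TTTCACTTTC before TTTCAGTTTC, and the Gbp2 promoter holds TTTCACTTTC just after the annotated start. Between genes that fell and rose, matches to other motifs were less uneven. The κB motif GGGNNNTTCC was found in 8.29% of promoters of genes that fell, 6.32% of those that rose and 6.4% of all kept genes. A STAT motif, TTCNNNGAA, had shares of 12%, 7.47% and 7.27%, and the AP-1 motif TGANTCA had 11.1%, 9.2% and 5.31%. In the 32 promoters of the interferon-induced list the shares were 28.1% for the STAT motif, 18.8% for AP-1 and 12.5% for κB, all above those of all kept genes. A match is a stretch of letters and not a binding measurement.

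Ifit3, which encodes an inhibitor of viral translation, had a mean of 3.5 untreated, 8 with IL-10, 2463 with LPS and 254.5 with both agents (log2 fold change with both against LPS -3.27). Its neighbour Ifit1, which binds viral RNA lacking a cap methylation, had 21, 12, 8220 and 1626.5 in the same order (-2.34). Ifit2 had 140, 133.5, 2532 and 486 (-2.38). LPS raised all 3 genes, and with both agents each stayed above its untreated level. Usp18, the protease that removes ISG15 from proteins and restrains interferon signalling, had 22.5, 29, 5871.5 and 1410 (-2.06). The RNA sensor Ifih1 (MDA5) had 299.5, 437.5, 6415.5 and 2236 (-1.52). Oasl1, a relative of the oligoadenylate synthetases, had 20.5, 52.5, 6340 and 2267 (-1.48). Members of other classes fell by like amounts, among them the ADP-ribosyltransferase relatives Parp14 (15439 with LPS and 5439.5 with both, -1.50) and Parp9 (3698 and 1727, -1.10), the tethering protein Bst2 (2386.5 and 975, -1.29) and the nucleic acid sensor Zbp1 (2195 and 1097, just past the limit). The 9 members short of 2-fold included the RNA sensor Ddx58 (9992 and 5008), which lay just outside the limit, Oas1a (-0.98), Oas3 (-0.90), Samhd1 (-0.80) and Trim30a, which was closest to 0 at 9010 and 7559 (-0.25).

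Members of the guanylate-binding and immunity-related GTPase families behaved in opposite ways with IL-10 alone and with IL-10 during LPS. These GTPases coat and disrupt vacuoles that hold intracellular pathogens. Gbp2 had 78 untreated, 1484 with IL-10, 2595 with LPS and 610 with both agents. Its log2 change was 4.23 for IL-10 alone against untreated and -2.09 for both agents against LPS. Cells with IL-10 alone thus had more Gbp2 than cells given IL-10 and LPS. IL-10 alone was given for 4 h, while cells with both agents had LPS for 4 h after a first 4 h of IL-10. The presence of LPS and the length of treatment therefore cannot be told apart in any such contrast. Igtp had 396, 2237, 3663.5 and 1439.5, with changes of 2.50 and -1.35. Irgm1 had 282.5, 1147, 4688.5 and 1712.5, with changes of 2.02 and -1.45. The same opposite directions were seen in Gbp5 (2.31 and -1.19), Gbp7 (1.09 and -1.66), Ifi47 (1.65 and -1.45) and Rtp4, a chaperone for receptors that interferon induces (2.97 and -1.34). The immunity-related GTPases were a set chosen after the values had been seen. All 8 kept fell with IL-10 and LPS (100%, against 3.71% of all kept genes, median -1.45). With IL-10 alone 6 of 8 rose (75%, against 1.08% of all genes, median 1.83). Reads of Tgtp1 and Tgtp2, which are near-identical copies, cannot be assigned with certainty, and both moved in this way.

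Across the interferon-induced list, IL-10 alone raised 10 of the 31 members kept in that comparison (32.3%, against 1.08% of all genes) and lowered 1 (3.23%, against 0.504%), with a median log2 change of 0.68. The member that fell was Oas1g, at 14 untreated and 5 with IL-10. In the whole table, 17 of the 172 genes that fell during LPS and were also kept in the comparison without LPS (9.88%) rose with IL-10 alone, and 12 of these 17 belong to the interferon-induced list or to the GTPases. Of the other 5, 3 had no mean of 50 or more in any neutrophil group. The comparison of IL-10 alone with untreated cells shares no column with the main comparison.

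**Figure D2:**
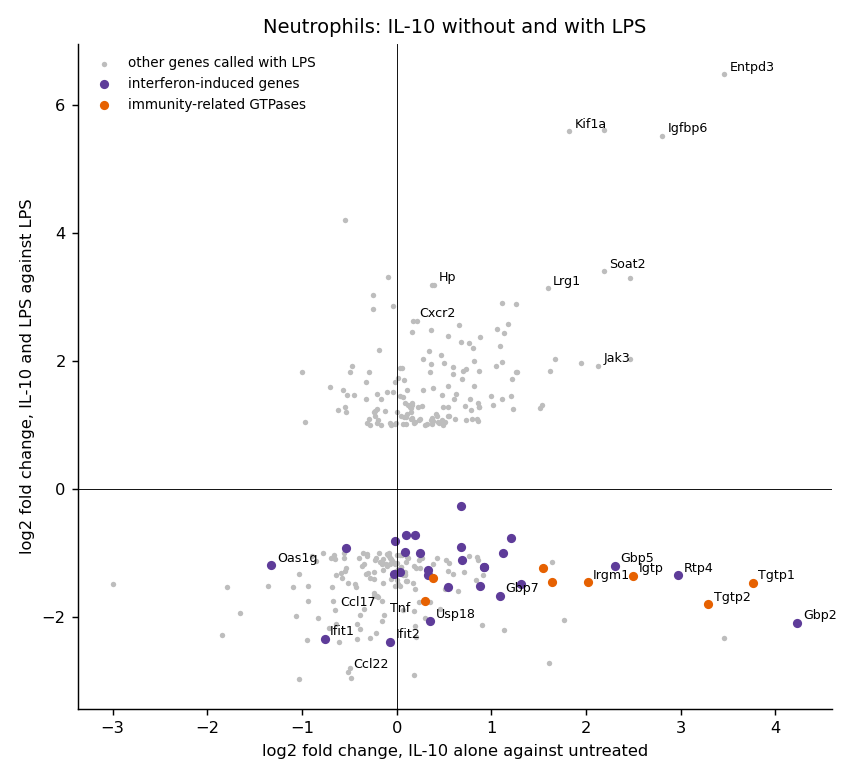
The x axis gives the log2 fold change with IL-10 alone against untreated neutrophils, and the y axis that with IL-10 and LPS against LPS, both on log2(mean + 1). Grey points are genes that fell or rose with IL-10 and LPS and have a mean of at least 10 in the comparison without LPS. The immunity-related GTPases (orange) and several interferon-induced genes (purple) lie at the lower right, with Gbp2 at 4.23 and -2.09, while Kif1a, Igfbp6 and Entpd3 lie at the upper right.

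The same 32 interferon-induced genes were then followed in the other cell types under the same treatments. In mast cells 24 of 32 fell with IL-10 and LPS against LPS (75%, background 3.67%, median -1.17). In sDCs 5 fell (15.6%, background 1.4%, median -0.73), and in macrophages 3 (9.38%, background 3.37%, median -0.21). None rose in any of these. Ifit3 changed by -3.27 in neutrophils, -1.18 in macrophages, -1.45 in sDCs and -0.58 in mast cells. Gbp2 changed by -2.09, 0.42, -0.73 and -1.12 in the same order, and Usp18 by -2.06, -0.27, -1.11 and -2.05. The ranks of the cell types thus varied from gene to gene, and the differences between cell types were not tested.

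**Figure D3:**
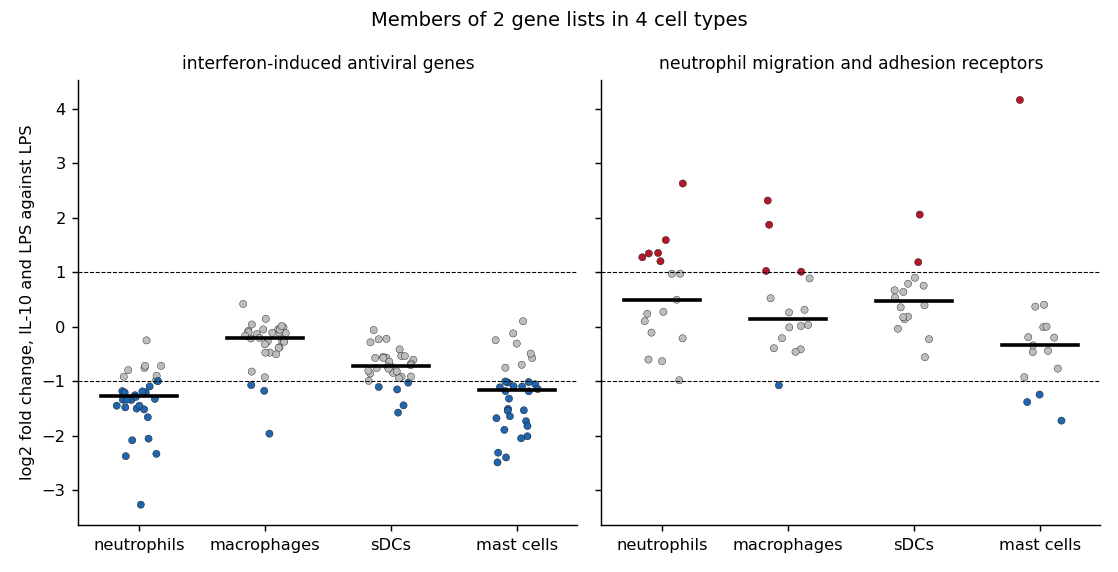
Points are genes of the interferon-induced list (left) and of the migration and adhesion receptor list (right), the y axis is the log2 fold change with IL-10 and LPS against LPS. Black bars are medians. Interferon-induced medians were -1.28 in neutrophils, -0.21 in macrophages, -0.73 in sDCs and -1.17 in mast cells, and receptor medians were 0.49, 0.14, 0.46 and -0.34.

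Cytokine genes included the deepest falls. Of 32 interleukins listed, 12 were held and 11 kept, of which 7 fell (63.6%) and 1 rose (9.09%), with a median log2 change of -1.20, against 3.71% and 2.96% of all kept genes. Il12b (chr11:44213565-44227535, + strand, NCBIM37), the p40 chain shared by IL-12 and IL-23, had 6 untreated, 2 with IL-10, 13131 with LPS and 88.5 with both agents. IL-10 thus lowered it 147-fold (log2 -7.20), although with both agents it stayed above the untreated level. Its partner in IL-23, Il23a, had 8.5, 9.5, 1742 and 108.5 (-3.99), and its partner in IL-12, Il12a, had 147, 210, 1054 and 359 (-1.55). Both chains of each cytokine were therefore lower with IL-10.

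Il27, which pairs with Ebi3 to form IL-27, had 90, 111, 893 and 220.5 (-2.01), while Ebi3 had 1866.5, 1704.5, 7459 and 7678.5 (0.04), so only the α chain of this heterodimer fell. The gene for IL-10 itself had 1.5, 0.5, 1601 and 221 (-2.85). Il15, a survival factor for lymphocytes, had 104.5 with LPS and 45 with both (-1.20), and the inflammasome substrate Il18 had 51.5 and 24 (-1.07). Il4 had 152.5 in both groups, and Il13 had 387 with LPS and 728 with both (0.91). Il19, a relative of IL-10, was the member that rose, from 2.5 to 20 (2.58), both low values. Il1b, Il6 and Il1rn were not analysed here.

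Chemokines, TNF family ligands and growth factors included further falls and a few rises. Of 34 chemokines listed, 7 were held and only 4 kept, of which 3 fell (75%, against 3.71% of all kept genes). Cxcl2, Cxcl10, Ccl3 and Ccl4 were among those not analysed here. Ccl22, which attracts T cells through CCR4, had 491 untreated, 343.5 with IL-10, 20912.5 with LPS and 2897 with both agents (-2.85). Ccl17, a ligand of the same receptor, had 999, 635, 5261 and 1428 (-1.88). Cx3cl1, the membrane-bound chemokine fractalkine, had 18, 12.5, 349 and 49.5 (-2.79), and Cxcl16 had 1271 with LPS and 702 with both (-0.86). All 4 had their highest value with LPS alone.

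Tnf had 2191, 2002, 44593 and 11420.5 (-1.97), so it was lowered 3.90-fold and stayed above the untreated level. Lta, its neighbour on chromosome 17, had 112, 127, 1079 and 143.5 (-2.90). Of 6 TNF family ligands kept, 2 fell and 2 rose (33.3% each, against 3.71% and 2.96% of all kept genes). Those that rose were Tnfsf9, the ligand of the costimulatory receptor 4-1BB, at 32.5, 52.5, 122 and 602.5 (2.29), and Tnfsf14 (LIGHT) at 1342, 1823.5, 510 and 1052 (1.04). LPS thus raised Tnfsf9 and lowered Tnfsf14, and both were higher with IL-10. Of 7 colony-stimulating and other secreted factors kept, 2 fell (28.6%, against 3.71% of all kept genes): Lif (92 with LPS and 20.5 with both, -2.11) and Csf2, the gene for GM-CSF (16 and 3.5, -1.92). Csf3, which encodes the neutrophil growth factor G-CSF, had 2.5, 0.5, 3243 and 2294.5 (-0.50).

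**Figure D4:**
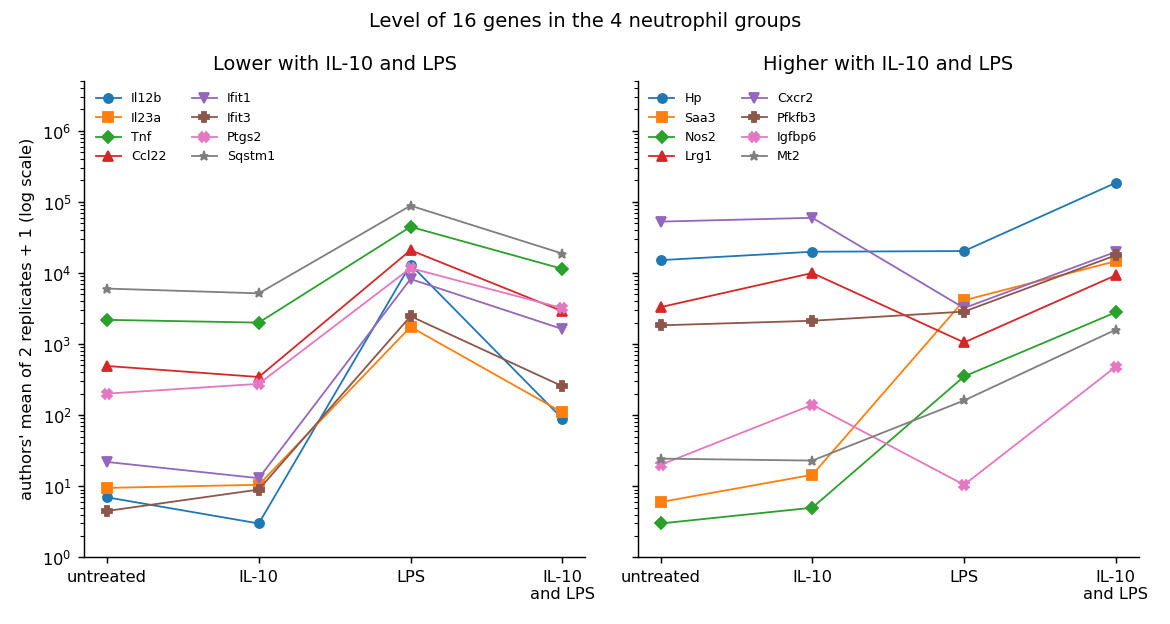
Authors' means plus 1 (log scale) of 8 genes that fell and 8 that rose with IL-10 and LPS against LPS, in the 4 neutrophil groups; lines join the means of a gene and no spread is available. Genes on the left peak with LPS, as Il12b does at 13131, and genes on the right are higher with IL-10 and LPS than with LPS, although Cxcr2, Lrg1 and Igfbp6 were lower with LPS than in untreated cells.

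Few transcription factors of the LPS pathway passed 2-fold. Of 4 interferon regulatory factors kept, Irf5 fell (25%, against 3.71% of all kept genes). It went from 3951.5 to 1759.5 (-1.17), with 3482 untreated and 3119.5 with IL-10. Irf1 had 1577 untreated, 3356 with IL-10, 3086.5 with LPS and 1570 with both agents (-0.97), so it was highest with IL-10 alone. Irf2 (-0.09) and Irf3 (-0.02) lay close to 0, and Irf7 was not analysed here. None of the 11 NF-κB subunits and regulators kept passed 2-fold in either direction (median -0.04). Since 93.3% of all kept genes did not pass either, this is near the background. Among them, Nfkb1 had 20692 with LPS and 12057.5 with both (-0.78), Rel changed by -0.58 and Nfkb2 by -0.70. Tnfaip3 (A20), which ends NF-κB signalling, had 1224.5, 1402.5, 19019.5 and 29819.5 (0.65), and Nfkbiz had 15670.5 with LPS and 14448 with both (-0.12).

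The IL-10 receptor and JAK-STAT genes showed 1 fall and 1 rise among 16 kept (6.25% each), close to the 3.71% and 2.96% of all kept genes. Jak3, a kinase of the common γ chain receptors, had 272 untreated, 1194 with IL-10, 454.5 with LPS and 1738 with both agents (1.93), so IL-10 raised it with and without LPS. Stat2, which acts downstream of the type I interferon receptor, had 1135, 1447, 6294 and 2509 (-1.33). The receptor chains Il10ra (5042 with LPS and 3541.5 with both, -0.51) and Il10rb (5807.5 and 5069.5, -0.20) stayed under 2-fold. Among reported mediators of the IL-10 response, 4 were kept. Sbno2, a STAT3-induced corepressor, had 3894.5, 6729, 3844.5 and 9044 (1.23), while haem oxygenase (Hmox1) had 2258, 3233, 77414 and 35953.5 (-1.11). Socs3, Bcl3 and Nfil3 were not analysed here.

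Sensors and costimulatory molecules fell in part. Of 19 pattern recognition and proximal signalling genes kept, 3 fell (15.8%) and 0 rose, against 3.71% and 2.96% of all kept genes. Tlr9, the endosomal DNA sensor, had 294, 308.5, 1349.5 and 363 (-1.89). The muramyl dipeptide sensor Nod2 had 392.5, 395, 1615 and 680 (-1.25), and the RNA sensor Tlr3 had 26 with LPS and 7 with both (-1.75). Tlr9 and Nod2 hardly differed between untreated and IL-10-treated cells. Of 8 antigen presentation and costimulation genes kept, 3 fell (37.5%, against 3.71% of all kept genes), namely the adhesion molecule Icam1 (793.5, 789.5, 8199 and 3383, -1.28), Icosl (2991 with LPS and 1357.5 with both, -1.14) and Cd40 (2718.5 and 1295, -1.07). Cd80 (-0.82) and Cd86 (-0.44) did not reach 2-fold. Of 9 MAP kinase phosphatase and AP-1 genes kept, Maff fell (-1.04; 11.1% of the list, against 3.71% of all kept genes) and none rose.

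**Figure D5:**
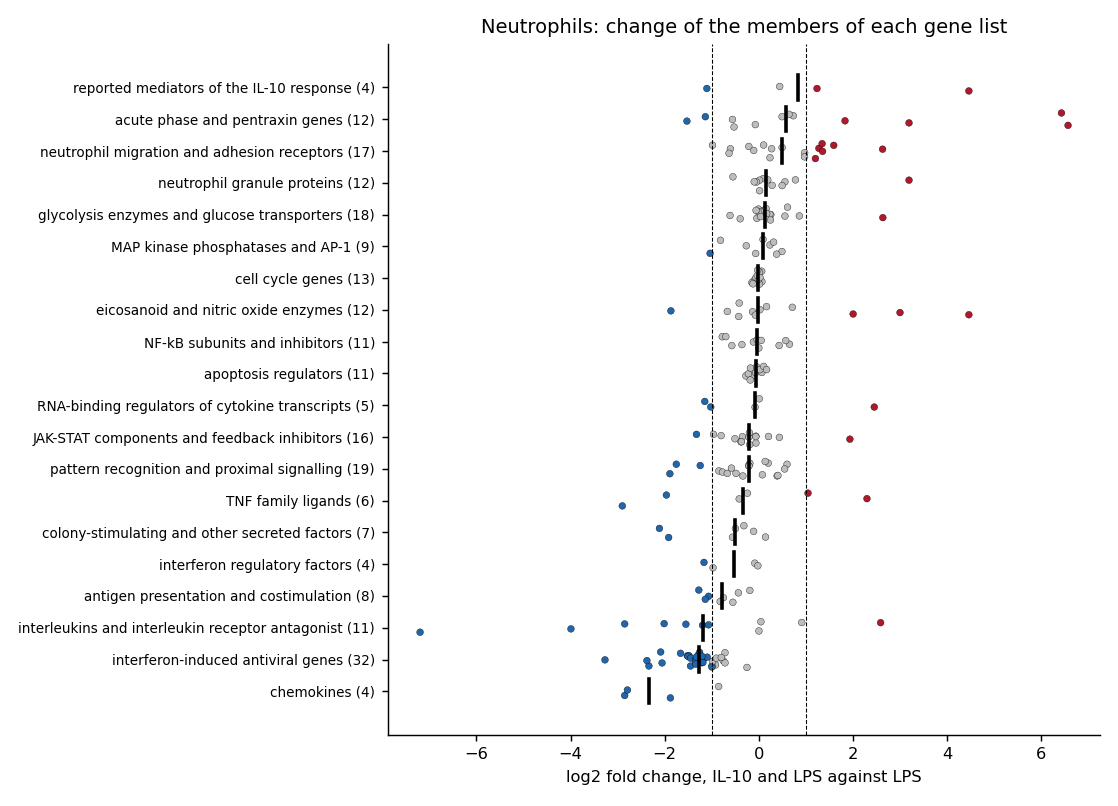
Rows are gene lists with the number of kept members in brackets, points are genes, the x axis is the log2 fold change with IL-10 and LPS against LPS. Black bars are medians. Chemokines (median -2.34), interferon-induced genes (-1.28) and interleukins (-1.20) lie at the bottom. Cell cycle genes cluster at 0, and 0 of 13 passed 2-fold, where 93.3% of all kept genes did not pass.

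Acute phase genes moved in both directions. Of 12 kept, 4 rose (33.3%, against 2.96% of all kept genes) and 2 fell (16.7%, against 3.71%), with a median log2 change of 0.57. Haptoglobin (Hp), a scavenger of haemoglobin stored in neutrophil granules, had 15147.5 untreated, 19880.5 with IL-10, 20333 with LPS and 185338 with both agents (3.19). The last value equals the maximum that every column of the table shares, so the size of the rise is limited by the scale. Saa3, an inducible serum amyloid A, had 5, 13.5, 4125.5 and 14657.5 (1.83). Saa1 had 0, 0, 1 and 188.5, and Saa2 was listed at 0 in all groups but the one with both agents, at 85. Saa1 and Saa2 are similar in sequence, so their split is uncertain. The members that fell were the pentraxin Ptx3 (406 with LPS and 140 with both, -1.53) and the protease inhibitor Serpina3f (224.5 and 101.5, -1.14), which rose with IL-10 alone (1.65). Complement C3 had 140658 and 95275 (-0.56).

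Several receptors for chemokines and growth factors were lower with LPS than in untreated cells and were higher again with IL-10. Both comparisons use the same LPS mean, so the fall and the rise are not independent. Of 17 receptors kept, 6 rose (35.3%) and 0 fell, against 2.96% and 3.71% of all kept genes, with a median log2 change of 0.49. Cxcr2, the receptor for CXCL1 and CXCL2, had 52728 untreated, 59650 with IL-10, 3210 with LPS and 19833 with both agents (2.63). IL-10 thus left it 6.18-fold above LPS alone and below the untreated level. Ccr1, a receptor for CCL3 and CCL5, had 27739.5, 29556, 7602.5 and 19406 (1.35). Ccr2, the receptor for CCL2, had 3043.5, 3056.5, 444 and 1021.5 (1.2). Csf2rb, the signalling chain of the GM-CSF receptor, had 26721, 48559, 19250 and 48829 (1.34). Cxcr1 had low values of 94.5, 272, 35 and 86 (1.27). In the other direction but under 2-fold were Itgax (3504.5 with LPS and 1769 with both, -0.99) and Ccr7 (1235.5 and 811.5, -0.61). In macrophages 4 of 16 members rose (25%, background 2.62%), in sDCs 2 of 16 (12.5%, background 2.17%) and in mast cells 1 of 15 (6.67%, background 2.62%). Members also fell elsewhere, 3 of 15 in mast cells (20%, background 3.67%), 1 of 16 in macrophages (6.25%, background 3.37%) and 0 of 16 in sDCs, so in mast cells more members fell than rose.

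Interleukin receptors, a list chosen after the values had been seen, moved the same way, with 6 of 21 higher (28.6%, against 2.96% of all kept genes) and 0 lower. Il1r2, the decoy receptor for IL-1, had 18376.5, 33488.5, 3350.5 and 8186 (1.29). The IL-1 accessory chain Il1rap had 2367, 7270.5, 3083.5 and 11108.5 (1.85), and Il13ra1 had 3468, 7528.5, 1053.5 and 4190 (1.99). Both had risen with IL-10 alone, by 1.62 and 1.12 on the log2 scale. The remaining 3 were Il18rap (1928 with LPS and 4688.5 with both, 1.28), Il18r1 (155.5 and 333.5, 1.10) and Il1r1 (14 and 34.5, 1.24).

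Granule protein genes were mostly under 2-fold, with 1 of 12 kept higher (8.33%, Hp; 2.96% of all kept genes) and 0 lower. Mmp8 (neutrophil collagenase) had 122455, 115516, 17265 and 29556 (0.78), and Mmp9 (gelatinase B) had 77310.5, 94912, 12701.5 and 18626 (0.55). Both were far below the untreated level in either group with LPS. Mpo (0.01) and Elane (0.28), products of the primary granules, differed little. Cybb, the catalytic subunit of the NADPH oxidase, had 77304.5 with LPS and 52708.5 with both (-0.55).

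Enzymes of nitric oxide, arginine and prostaglandin metabolism moved apart. Nos2, the inducible nitric oxide synthase, had 2 untreated, 4 with IL-10, 349.5 with LPS and 2797 with both agents, so IL-10 raised it 7.98-fold over LPS alone. Arg1, which uses the same substrate, had 5, 9.5, 2 and 65 (4.46). Ptgs2 (COX-2), which makes prostaglandin precursors, went the other way at 200, 275, 11700 and 3200.5 (-1.87). The ectoenzyme Cd38 had 464, 816.5, 521 and 2088.5 (2.00). Of the 12 enzymes kept, 3 rose (25%, against 2.96% of all kept genes) and 1 fell (8.33%, against 3.71%), and the leukotriene enzymes Alox5 (0.16) and Lta4h (0.02) lay near 0. Among 18 glycolysis genes, Pfkfb3 rose (5.56% of the list, against 2.96% of all kept genes) and none fell. Pfkfb3, whose product makes the activator of phosphofructokinase, had 1834.5, 2126, 2861 and 17738.5 (2.63), and the glucose transporter Slc2a1 had 3077 with LPS and 5580.5 with both (0.86).

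RNA-binding regulators of cytokine transcripts were also divided, with 2 of 5 lower (40%) and 1 higher (20%), against 3.71% and 2.96% of all kept genes. Zc3h12d, a relative of the endonuclease regnase-1, had 230, 258, 49.5 and 275 (2.45). Zc3h12c, of the same family, had 182.5, 182.5, 2336 and 1052 (-1.15). No apoptosis regulator (0 of 11) and no cell cycle gene (0 of 13) passed 2-fold in either direction. As 93.3% of all kept genes did not pass either, these counts are near the background.

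Beyond the lists, the genes with the most positive log2 changes were mostly low or absent with LPS. The ectonucleotidase Entpd3 had 21 untreated, 240.5 with IL-10, 1 with LPS and 177.5 with both agents (6.48). The insulin-like growth factor binding protein Igfbp6 had 19, 139, 9.5 and 480.5 (5.52). Both genes shared an order, in which IL-10 alone was above untreated and LPS alone was lowest. The axonal kinesin Kif1a had 6.5, 25.5, 16 and 816 (5.59), and the ephrin receptor Epha4 was listed at 0 in all groups but that with both agents, at 66. Lrg1, a secreted glycoprotein stored in neutrophil granules, had 3305.5, 9986.5, 1053.5 and 9291 (3.14). Timp1, an inhibitor of matrix metalloproteinases, had 6, 37.5, 137.5 and 1366 (3.30). The mannose receptor Mrc1 (124.5 with LPS and 613 with both, 2.29) and Ccr2 are on the macrophage or monocyte marker list and rose, whereas Emr1 (F4/80) on the same list fell from 14667.5 to 5157.5 (-1.51).

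Other genes with very negative changes were of varied kinds. Marco, a scavenger receptor known from macrophages and also a listed marker of them, was listed at 0 without LPS and had 241 with LPS and 14.5 with both agents (-3.96). I830012O16Rik had 2, 3, 1031.5 and 67.5 (-3.91). It lies at chr19:34682421-34687891, next to the Ifit genes, and its reads may be shared with them. The largest fall in the value itself, on a scale not set per length, was that of Sqstm1, the autophagy receptor p62, which had 6031.5, 5169, 88380.5 and 18745 (-2.24). At the edges of the 2-fold limit, Qprt, Rab11b-ps2 and Sec14l2 lay just inside and Ddx58, Itgax and Adcy5 just outside on the lower side. On the upper side Msh5, 2510009E07Rik and Zfp647 lay just inside and Arhgap39, March1 and Hs6st1 just outside.

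Fewer genes passed 2-fold with IL-10 alone than with IL-10 during LPS, although the treatments also differed in length. With IL-10 alone 62 of the genes kept in both comparisons rose (1.08%) and 29 fell (0.504%). Of the 160 genes that rose during LPS and were kept in both, 30 (18.8%) also rose with IL-10 alone, which is 48.4% of the 62. They include Entpd3, Igfbp6, Lrg1, Timp1, Jak3, the semaphorin Sema6b (288.5, 924, 237 and 971) and the cholesterol acyltransferase Soat2 (122.5, 560.5, 131 and 1397). Of the 172 that fell during LPS, 10 (5.81%, 34.5% of the 29) fell with IL-10 alone, most of them at low values, and with a minimum mean of 50 in both comparisons none was left (0).

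Genes shared with other cell types were counted among those kept in both. In macrophages, 60 of the 189 genes that fell in neutrophils also fell (31.7%, background 3.37%; 31.9% of the 188 that fell there), and 51 of 147 that rose also rose (34.7%, background 2.62%; 34.9% of 146). In sDCs the numbers were 39 of 190 lower (20.5%, background 1.4%; 49.4% of 79) and 45 of 148 higher (30.4%, background 2.17%; 36.9% of 122). In mast cells they were 63 of 156 lower (40.4%, background 3.67%; 31.7% of 199) and 32 of 128 higher (25%, background 2.62%; 22.5% of 142). Among the 5225 genes kept in all 4 cell types, 7 fell in every one: Il12b, Lta, Lif, Ccl17, Ppfia3, Tpbg and I830012O16Rik. A further 11 rose in every one, among them the metallothioneins Mt1 and Mt2, Timp1, Lrg1, Jak3, the monocarboxylate transporter Slc16a1 and the nucleotide receptor P2ry6. Mt2, which binds zinc and copper, had 23.5, 22, 160 and 1593.5 in neutrophils (3.31), and changed by 2.21 in macrophages, 2.44 in sDCs and 2.95 in mast cells.

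Among genes kept in all 4 cell types, 52 of the 139 that fell in neutrophils (37.4%) and 47 of the 111 that rose (42.3%) were under 2-fold in the other 3, against 4674 of all 5225 genes (89.5%). Sqstm1 changed by -2.24 in neutrophils, -0.41 in macrophages, -0.49 in sDCs and -0.06 in mast cells. Il1rap changed by 1.85, -0.32, 0.00 and -0.71, and Csf2rb by 1.34 in neutrophils, 0.26 in macrophages and 0.35 in sDCs. Tnf fell in 3 cell types, by 1.97 on the log2 scale in neutrophils, by 3.02 in macrophages and by 1.75 in sDCs, and had -0.88 in mast cells. The macrophage mean with LPS, 185338, is the maximum shared by all columns, so the size of that fall is limited by the scale. Whether these changes differ between cell types was not tested.

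Summing transcripts hid some opposed values. Of 3410 genes with 2 or more transcripts kept, 318 (9.33%) had transcripts past 2-fold in both directions, and 306 of these did not pass as a gene. The split of reads between transcripts of a gene is an estimate, and 521 of 2825 transcripts past 2-fold (18.4%) were listed at 0 in either group. Phka1, a phosphorylase kinase subunit, is an example. Its transcript ENSMUST00000052012 had 83.5 with LPS and was listed at 0 with both agents, while ENSMUST00000119229 was listed at 0 with LPS and had 79 with both. Of 142 genes that fell or rose and had at least 2 transcripts kept, 66 had every transcript past 2-fold the same way and 12 had a transcript past it the other way. Sqstm1, with 6 transcripts, and Pfkfb3, with 11, had every transcript in the direction of the gene.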

How the data were processed

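RNA-seq was made by the authors from 2 neutrophil replicates per group. The deposited values, treated here as a score, are tag counts per transcript that the authors obtained with RSEM and Bowtie on mm9 (RSEM 1.2.1 and Bowtie 0.12.9 in the submitters' processing notes) from Ensembl transcripts, normalized for GC content with EDASeq and averaged over both replicates. All 18 columns share a maximum of 185338 and all values are multiples of 0.5, so extreme values are tied to a common scale. The depth of each library cannot be read from the values, and a value of 0 is given as listed at 0. Use of strand in counting is not given in the sources read, so overlapping antisense genes and close paralogs (Saa1 and Saa2, the Ifit, Gbp and Tgtp families) are uncertain.

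The table held 17015 complete lines and 1 broken off, of which 22 (0.129%) lacked a gene name and were set aside. The 16993 transcripts used belong to 6509 genes and do not cover the whole transcriptome. A few named genes are not reported here. The series' 1 library without a column was not used, and 0 value columns were left out. With Python 3.11.15, numpy 2.4.6 and pandas 2.3.3, transcripts were summed per gene name, genes with either mean at 10 or above were kept, and log2((mean with IL-10 and LPS + 1)/(mean with LPS + 1)) was called at 2-fold. No test was run, since groups have 1 value each. Figures were drawn with matplotlib 3.10.9. The 2-fold rule was tried on simulated counts with planted changes and no added variation between replicates. This checks the calculation only and says nothing about how reliable the calls are. Promoters of 300 bases came from the NCBIM37 genome with GENCODE vM1 transcript starts, which held 16791 transcripts (98.8%).

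The comparison, gene lists and markers were chosen with earlier results of these data known. Named genes were the 15 most negative and 15 most positive with a mean of 50 or more, called list members and, in 7 lists, all kept members, the 10 largest falls and rises in value, 5 genes with opposed transcripts, 3 genes on each side of each limit, up to 10 shared by 4 cell types, up to 5 opposed in another cell type, and markers with a mean of 50 or more. Some members short of 2-fold, genes named for IL-10 alone and the lists said to be chosen later were picked after their values had been seen. Alternatives were other pseudocounts (0.1 and 5), filters (none and 50), folds (1.5), single transcripts, the most abundant transcript, median centring and a common column sum.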

Additional observations from a re-analysis of the deposited data

Results flagged for a closer look

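The change with IL-10 during LPS passed 2-fold in opposite directions in neutrophils and at least 1 other cell type in 22 genes. Of these, 9 were lower and 13 higher in neutrophils. Such shares were near those of all genes kept in both. Of genes that fell in neutrophils, 2.65% rose in macrophages (background 2.62%), 1.05% in sDCs (2.17%) and 1.92% in mast cells (2.62%). Of genes that rose, 3.4% fell in macrophages (background 3.37%), 2.03% in sDCs (1.4%) and 3.91% in mast cells (3.67%). The 5 of each kind with the largest opposite change are given here. Each rests on 1 mean per group, and none of the differences was tested. Il10 fell in neutrophils (log2 -2.85) and was 5.13 in mast cells, where it had 5 with LPS and 208.5 with both agents. Ccr1 rose in neutrophils (1.35) and was -1.73 in mast cells (8602 with LPS and 2599 with both).

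The other 8 had means under 100 in the other cell type. Klre1 was 4.25 in macrophages (listed at 0 with LPS and 18 with both) and -1.42 in neutrophils. Tppp3 was 2.81 in macrophages (13 and 97) against -1.26, and the pseudogene Rpsa-ps10 was 2.30 in macrophages (6.5 and 36) against -1.93. Lpar4 was 1.75 in mast cells (12.5 and 44.5) against -2.0. The vomeronasal receptor Vmn2r26 was -2.66 in macrophages (18 and 2) against 1.12, and Vmn2r96 was -1.97 in sDCs (22.5 and 5) where neutrophils had 0 with LPS. Krt80 was -1.81 in mast cells (23.5 and 6) against 1.54, and Edaradd was -1.78 in mast cells (11 and 2.5) against 1.92.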

How the results depend on the processing

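Of 198 named genes tried under 7 settings each, 1362 values kept their side of the 2-fold limit, 24 crossed it and 0 changed direction. The filters (none and 50) leave the fold of a gene unchanged, and median centring subtracted 0.00. These settings could therefore move no gene, and their values say nothing about robustness. Genes that crossed numbered 9 with a pseudocount of 5, 0 with 0.1, 9 with the most abundant transcript and 6 with a common column sum. Cd40 had -0.76 and Igtp -0.95 when the most abundant transcript stood for the gene. The number of genes that fell went from 218 to 139 with a minimum mean of 50, 1402 for transcripts taken singly and 504 at 1.5-fold, and the number that rose from 174 to 1423 and 350 under the last 2. Genes lower with IL-10 both alone and during LPS, 10 in the report, numbered 3 with a pseudocount of 5, 35 without the filter on low values, 0 with a minimum of 50 and 23 with the most abundant transcript, so this count depends on low values. Without the filter, genes higher in both numbered 47, and genes lower in neutrophils and also in macrophages 93, sDCs 62 and mast cells 105. With a minimum of 50, genes lower also in macrophages numbered 34, lower also in mast cells 38 and higher also in mast cells 21. The cause of each was not tested, apart from the fewer or more genes that each filter admits. Leaving out the macrophage or monocyte and dendritic cell markers, chosen after seeing the data, takes away only the 3 markers that fell and the 3 that rose and is no check on the part of other cells. No paired analysis was possible because the columns carry no replicate, and for the same reason no replicate could be left out. With no spread between replicates, changes near 2-fold and means near 10 are the least certain.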

Other observations

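Cholesterol handling genes, a list chosen after the values had been seen, were divided, with 4 of 16 kept higher (25%, against 2.96% of all kept genes) and 4 lower (25%, against 3.71%). Abca1, which exports cholesterol to apolipoprotein A-I, had 152.5 untreated, 148.5 with IL-10, 764.5 with LPS and 5570.5 with both agents (log2 2.86). Its relative Abcg1, which exports cholesterol to mature lipoproteins, had 1263.5, 884, 765 and 277 (-1.46). Soat2, which esterifies cholesterol, rose (3.40), as did the lipoprotein receptor Lrp1 (819.5 with LPS and 2607 with both, 1.67) and the transfer protein Pltp (38 and 92, 1.25). The lysosomal lipase Lipa (7631 and 3019, -1.34), the oxidised lipoprotein receptor Olr1 (10942 and 4686.5, -1.22) and cholesterol 25-hydroxylase, Ch25h (54 and 12, -2.08), fell. Abca1 was 0.85 in macrophages, 0.75 in sDCs and -0.74 in mast cells.

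Genes of oxidative stress and iron handling, also chosen after seeing values, were mostly lower. Of 15 kept, 2 fell (Sqstm1 and Hmox1, 13.3%) and 1 rose (6.67%), against 3.71% and 2.96% of all kept genes. In all, 13 were below 0, most of them by less than 2-fold. The median was -0.40, against 0.00 for all kept genes. Prdx1, a peroxidase, had 3694.5, 3636.5, 24706 and 16263 (-0.60), and Srxn1, which repairs peroxiredoxins, had 1480.5, 1498, 8991 and 4734.5 (-0.93). The member that rose was Fbxl5, the ligase subunit that degrades iron regulatory protein 2, at 6809.5, 14702.5, 10163 and 26872 (1.40). The orphan nuclear receptors Nr4a3 (135, 121.5, 7076 and 1710, -2.05) and Nr4a1 (167, 165, 5349.5 and 2382, -1.17) fell, and Nr4a2 had 0.23. Of 9 class I and class Ib MHC genes kept, H2-T22 (-1.34) and H2-Q4 (-1.17) fell (22.2%, against 3.71% of all kept genes). Reads of these similar genes are hard to assign.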
